A study of Homo sapiens with 6 samples.

Results

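The set described here is 49 human genes whose RNA was higher in every library from A549 cells transfected with sgRNA #2 than in any library from cells transfected with a non-targeted control sgRNA. The members were chosen from these same libraries by 3 conditions on CPM, the reads of a gene scaled to 1000000 reads counted on genes per library. The mean of the 3 sgRNA #2 libraries had to be at least 5 CPM, all 3 sgRNA #2 values had to lie above all 3 control values, and the ratio of the group means had to be at least 1.4. Of the 26485 genes in the files, 11377 had a mean of at least 5 CPM with sgRNA #2, and 887 of these (7.80%) had no overlap between the groups. The ratio condition left 49 genes, which is 0.431% of the 11377. Surfactant, interferon and SREBP genes were to be left out, but 0 of them met the conditions. The same conditions turned the other way, with the mean taken in the control libraries, held for 251 of 11440 genes (2.19%). Because the rule used the contrast between the sgRNAs, the differences of the members between the groups are given as a description, without a test.

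A549 is an established lung adenocarcinoma cell line. In both groups the cells carried dCas9-KRAB, a nuclease-dead Cas9 fused to the KRAB repressor domain, delivered by lentivirus and kept by puromycin selection. Both groups also carried rat Nkx2-1, a lung transcription factor driven by the PGK promoter in a lentiviral vector with EGFP, for which the cells were sorted. Parental A549 cells lack NKX2-1 of their own, and whether the sorted cells came from 1 clone is not given in the sources used here. The groups differed in the synthetic sgRNA that was transiently transfected, either sgRNA #2, aimed at intron 1 of SFTPB, or the non-targeted control, with 3 libraries each. Since 1 targeting sgRNA was compared with 1 control sgRNA, what accompanied the lower SFTPB and what accompanied other actions of sgRNA #2 cannot be told apart. The comparison asked which genes besides SFTPB were expressed at another level with sgRNA #2.

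Several members belong to signalling that airway epithelial and lung carcinoma cells are known for. Amphiregulin and epiregulin are ligands of the epidermal growth factor receptor (EGFR): they are made as membrane proteins, cut from the cell surface by proteases, and bind EGFR on the same or a neighbouring cell. EGFR signals through the ERK kinase cascade to transcription factors such as EGR1, whose genes are switched on within minutes. CXCL8, CXCL1 and CXCL2 are chemokines that attract neutrophils, and they are transcribed by NF-kB and AP-1, as is PTGS2, the inducible cyclooxygenase of prostaglandin synthesis.

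The 23-base target of sgRNA #2 had 1 exact match in GRCh38, on the minus strand, and is shown because it is what the groups differ in. The capitals mark the AGG next to the protospacer, which Cas9 needs for binding.
sgRNA #2 target, chr2:85668529-85668551: gggatgggaggggaacacccAGG
SFTPB, the surfactant protein B gene and the target of the sgRNA, was at 423, 407 and 416 CPM in the control libraries and at 5.67, 6.37 and 8.10 CPM in the sgRNA #2 libraries. No library label was at odds with the level of the targeted gene. The last 10 bases of the protospacer followed by any NGG occurred 266 times in GRCh38. None of the 46 members with a position in GENCODE had such a match within 1000 bp of an annotated transcription start, against 19 of 11192 (0.170%) of the genes with a mean of at least 5 CPM with sgRNA #2. At that share most sets of 46 genes would hold none, and matches farther from a start were not assigned to genes. Whether sgRNA #2 acted at other sites was not tested. Chromosome 2, where SFTPB lies, holds 0 of the 46, against 6.67% of the 11192 genes.

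The libraries held 6047554 to 7584611 reads counted on genes, so 5 CPM stood for 30.2 to 37.9 reads, and 3 reads, taken as the floor of detection, for 0.396 to 0.496 CPM. Reads that the counting assigned to no annotated feature made up 19.7 to 21.1% and reads ambiguous between genes 2.61 to 2.75%. All 8 fixed epithelial markers of A549 cells were present, with a summed level of 8827 to 9631 CPM in the control and 8342 to 9363 CPM in the sgRNA #2 libraries. The 13 markers of blood, vessel, connective tissue, muscle, liver and nerve cells summed to 12 to 14.6 CPM and 10.1 to 14.7 CPM, with CD3E, CDH5, DES and PTPRC at 0 in every library and only CD14, COL1A1 and RBFOX3 at 1 CPM or more. The members together made up 1368 to 1469 CPM in the control libraries and 2114 to 2268 CPM in the sgRNA #2 libraries. In bulk RNA, a change in the share of cells that express a gene and a change in RNA per cell cannot be told apart.

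Most members differed moderately between the groups. The median ratio was 1.52, 3 members had a ratio of at least 2, 27 one of at least 1.5, and 22 lay between 1.4 and 1.5. In 26 members the lowest sgRNA #2 value was at least 1.2 times the highest control value, while in 11 it was less than 1.1 times that value. The smallest gaps were those of ANXA2R, an annexin A2 receptor, at 1.002, and CXCL1 at 1.009. Just outside were AGR2 at 0.970 and PTHLH at 0.976, although their ratios of means were 1.45 and 1.48. At the ratio threshold ZNF333 and JAG1 were inside with 1.401 and 1.402, while PLA2G6 and LOC286437 were outside with 1.397 each. At the level threshold GIPR and GPR3 were inside with 5.18 and 5.21 CPM, and SOX21-AS1 and EMC6 outside with 4.80 and 4.93 CPM.

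**Figure D1:**
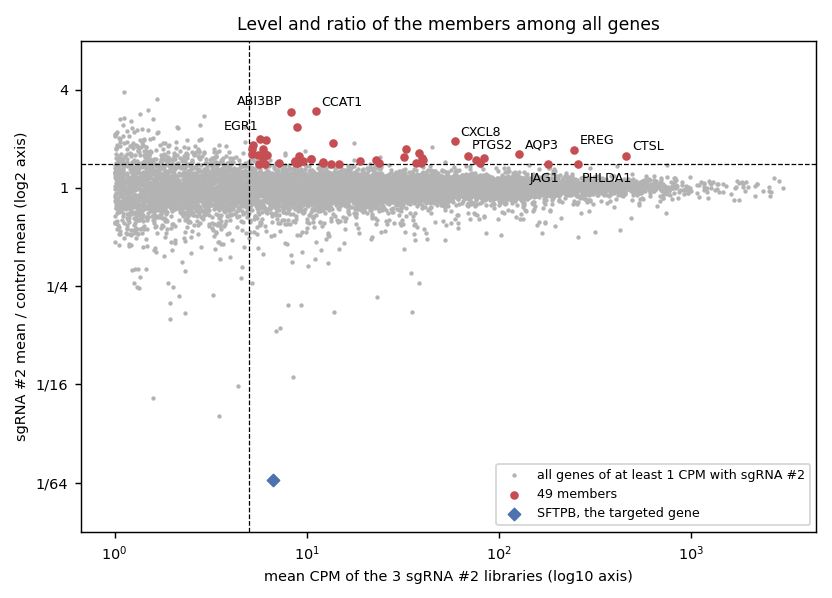
Each grey point is a gene with at least 1 CPM with sgRNA #2, placed by its mean CPM over the 3 sgRNA #2 libraries (log10 axis) and the ratio of that mean to the control mean (log2 axis). The 49 members (red) lie right of and above the dashed thresholds of 5 CPM and 1.4. Their median level was 12.1 CPM, with 21 members under 10 CPM, and the highest was CTSL at 460.1 CPM. SFTPB (blue) lies at a ratio of 0.0162.

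With edgeR's quasi-likelihood test across 13356 genes, 62 genes (0.464%) were called higher and 297 (2.22%) lower at a Benjamini-Hochberg adjusted p under 0.05. Of the 62, 25 were members, 36 had a ratio under 1.4 and 1 had a mean under 5 CPM with sgRNA #2. The rule used the same contrast, so the 25 of 49 add no separate evidence. Of the 28 members with at least 10 CPM with sgRNA #2, 21 were called, and of the 21 below that level 4 were. Libraries of the same replicate number deviated together, and with the replicate number as a block 45 of 49 members were called, beside 530 of 13356 genes (3.97%). The fit with the block did not weigh the spread of single genes, so its p-values, here and below, are not on a par with those without it. DESeq2 called 18 members, beside 51 of 14681 genes (0.347%). With a log2 fold change of at least 1 added to the edgeR threshold, 4 genes (0.0299%) remained, of which CCAT1, ABI3BP and C9orf135 are members. LPXN, SCARF1, SDR16C5 and ZNF333 were called by none of the 13 fits run, and 12 members by every one of them: ABI3BP, AREG, BMP6, CCAT1, CTSL, CXCL8, INSL4, JAG1, PDK4, PHLDA1, PTGS2 and TRIML2.

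EREG and AREG, the epiregulin and amphiregulin genes, lie next to each other on chromosome 4, with 56.4 kb between them. EREG (chr4:74365145-74388749) was at 182, 113 and 134 CPM in the control libraries and at 296, 212 and 228 CPM with sgRNA #2. Its means were 143 ± 35.2 and 245 ± 44.7 CPM (SD, n = 3 here and throughout), a ratio of 1.72. In both groups replicate 1 was highest and replicate 2 lowest, and within replicate numbers the ratios were 1.63, 1.87 and 1.71. AREG (chr4:74445136-74455005) was at 25.5, 18.5 and 25.6 CPM against 40.8, 35.3 and 38.9 CPM, a ratio of 1.65. Its lowest sgRNA #2 value was 1.38 times the highest control value, and replicate 2 was again lowest in both groups. CPM is not scaled to transcript length, so the levels of EREG and AREG were not compared with each other.

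The 250 bases before the RefSeq starts of both genes, from the promoter table on GRCh38.p14, are shown because both hold a TATA box close to the start. The capitals mark matches of TATAAA and of TGACGT, the core of the cyclic AMP response element, searched on both strands.
EREG: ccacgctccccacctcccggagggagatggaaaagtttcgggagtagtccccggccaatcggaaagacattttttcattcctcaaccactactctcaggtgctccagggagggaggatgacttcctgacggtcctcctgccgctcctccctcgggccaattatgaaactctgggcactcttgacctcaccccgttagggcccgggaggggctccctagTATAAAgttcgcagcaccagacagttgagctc
AREG: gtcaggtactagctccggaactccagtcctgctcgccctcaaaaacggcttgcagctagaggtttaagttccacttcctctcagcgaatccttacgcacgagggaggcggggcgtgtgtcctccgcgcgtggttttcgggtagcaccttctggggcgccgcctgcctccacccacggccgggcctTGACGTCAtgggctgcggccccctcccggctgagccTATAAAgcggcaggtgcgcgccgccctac
The EREG window is chr4:74364895-74365144 and the AREG window chr4:74444886-74445135, both on the plus strand. TATAAA began 32 bases before the EREG start and 29 bases before the AREG start. The AREG window also held TGACGT on both strands, overlapping as a full palindromic element that began 65 bases before the start.

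Without the replicate block no other EGFR ligand or receptor gene was called higher, and with it HBEGF was. These genes were picked after the values had been seen. BTC, the betacellulin gene 429 kb downstream of EREG, was lower, with counts of 23, 33 and 25 for the control sgRNA and 3 in each sgRNA #2 library (edgeR adjusted p = 7.60e-05). The ratio of its summed counts, scaled to the library totals, was 0.118, with an exact 95% interval of 0.0523 to 0.236 that covers counting error only. HBEGF had means of 33.6 and 42.4 CPM (edgeR adjusted p = 0.287, and 0.00155 with the block), TGFA 55.6 and 51.5 CPM (edgeR adjusted p = 0.70) and EGF 4.41 and 5.35 CPM (edgeR adjusted p = 0.749). EPGN, which lies between the chemokine genes and EREG, had 0 to 2 counts per library. Of the receptors, EGFR had means of 137 ± 7.97 and 145 ± 0.842 CPM (edgeR adjusted p = 0.733). ERBB2, the receptor without a ligand of its own, was lower with sgRNA #2, at 72.9, 79.2 and 74.9 CPM against 45.5, 47.6 and 46.6 CPM (edgeR adjusted p = 1.48e-05). ERBB3, with means of 84.4 and 70.8 CPM, passed only with the block (edgeR adjusted p = 0.453, and 0.000656 with the block) and ERBB4 had 0 counts in every library.

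**Figure D2:**
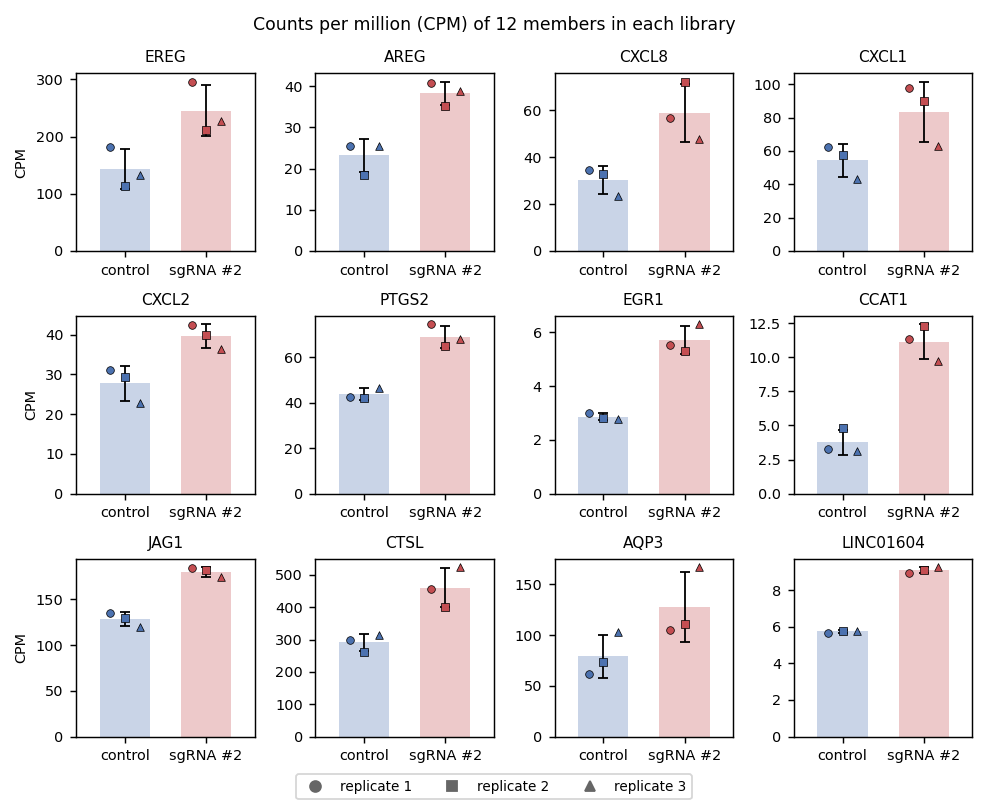
CPM of 12 members in each library (points, shaped by replicate number), with the mean (bar) and SD (line) of the 3 control and 3 sgRNA #2 libraries. In every panel the lowest sgRNA #2 point lies above the highest control point, narrowly for CXCL1 and AQP3 and widely for CCAT1 and EGR1.

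CXCL8, CXCL1 and CXCL2 are the 3 neutrophil chemokine genes among the members, so that all 3 were higher restates the rule. CXCL8, the interleukin 8 gene, was at 34.5, 33.0 and 23.5 CPM in the control libraries and at 56.7, 72.1 and 47.6 CPM with sgRNA #2, a ratio of 1.94. CXCL1 was at 62.4, 57.3 and 43.2 CPM against 97.6, 89.7 and 63.0 CPM, a ratio of 1.54. CXCL2 was at 31.1, 29.4 and 22.8 CPM against 42.4, 39.9 and 36.4 CPM, a ratio of 1.42. All 3 chemokine genes were lowest in replicate 3 of both groups, so that the replicate 3 library with sgRNA #2 came close to the replicate 1 library of the control, to 1.009 times its value in CXCL1 and 1.17 times in CXCL2. Within replicate numbers the ratios lay between 1.64 and 2.19 for CXCL8, between 1.46 and 1.57 for CXCL1 and between 1.35 and 1.59 for CXCL2. PTGS2, which shares their known regulators but lies on chromosome 1, was at 42.7, 42.2 and 46.7 CPM against 74.4, 64.9 and 68.0 CPM, a ratio of 1.57 with a gap of 1.39 between the groups. Unlike the chemokines, PTGS2 was not lowest in replicate 3.

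The windows of 250 bases before the RefSeq starts of CXCL1 and CXCL2 are shown because both hold an NF-kB site at nearly the same distance. Matches of the NF-kB site and of TGACGT, searched on both strands, are in capitals.
CXCL1: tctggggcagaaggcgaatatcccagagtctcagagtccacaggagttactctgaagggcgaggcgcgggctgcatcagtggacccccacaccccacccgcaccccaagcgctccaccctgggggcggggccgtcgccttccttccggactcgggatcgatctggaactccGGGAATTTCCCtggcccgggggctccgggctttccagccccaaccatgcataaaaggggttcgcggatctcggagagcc
CXCL2: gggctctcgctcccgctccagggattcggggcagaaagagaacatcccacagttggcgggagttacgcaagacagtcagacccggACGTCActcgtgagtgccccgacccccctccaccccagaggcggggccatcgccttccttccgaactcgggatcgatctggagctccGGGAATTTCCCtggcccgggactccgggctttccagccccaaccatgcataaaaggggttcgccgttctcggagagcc
The windows are chr4:73869143-73869392 on the plus strand for CXCL1 and chr4:74099196-74099445 on the minus strand for CXCL2. The NF-kB match began 79 bases before the CXCL1 start and 78 bases before the CXCL2 start, and the windows were identical at 73 of the last 100 bases and at 117 of all 250 bases when aligned at the start without gaps. Because the distances of the match differ, the match and the bases upstream of it were compared out of register. These counts therefore understate the likeness of the windows. Of the windows not printed, that of CXCL8 held a match of the AP-1 site TGANTCA 137 bases and TATAAA 31 bases before the start, and that of PTGS2 held TATAAA 32 bases before it. No match says only that these letters are not in the window.

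The chemokine genes stand in a cluster on chromosome 4 upstream of EREG, and 7 of the 46 members with a position (15.2%) lay on this chromosome against 3.65% of all genes with at least 5 CPM. The 7 were CXCL8, CXCL1, CXCL2, EREG, AREG, FGFBP1 and TRIML2, of which the first 5 belong to 1 stretch from CXCL8 to AREG. The distance was 126 kb from CXCL8 to CXCL1 and 226 kb from CXCL1 to CXCL2. Among the other genes of the interval, CXCL5 narrowly missed the rule, at 609, 522 and 486 CPM against 819, 749 and 684 CPM, a ratio of 1.393 without overlap (edgeR adjusted p = 0.00313). CXCL3 had a ratio of 1.68 but overlapping groups, at 7.57, 6.37 and 3.56 CPM against 11.8, 11.97 and 5.62 CPM (edgeR adjusted p = 0.222, 0.0209 without sgRNA #2 replicate 3 and 0.000707 with the block). MTHFD2L, a mitochondrial folate enzyme gene between CXCL2 and EREG, had a ratio of 1.24 with overlapping groups. RASSF6, on the other side of CXCL8, had the opposite direction, with means of 18.96 and 11.7 CPM. Its edgeR adjusted p of 0.0499 ran from 0.00701 to 0.259 when 1 library was left out, and the call was lost without replicate 1 or 2 of the control or replicate 1 or 3 with sgRNA #2. The 5 members of the stretch were chosen for values that do not overlap, so that they share a direction restates the rule. Of the other 3 genes there that reached 5 CPM with sgRNA #2, CXCL5 had higher values without overlap, as 7.80% of all genes did, and CXCL3 and MTHFD2L had overlapping groups.

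**Figure D3:**
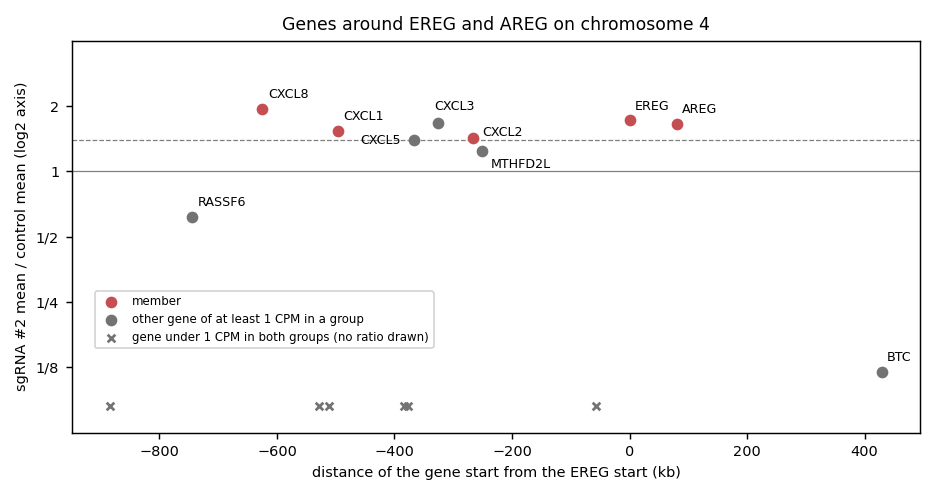
Ratio of the sgRNA #2 mean to the control mean (log2 axis) for the listed genes around EREG and AREG, placed by the distance of their starts from the EREG start in kb. Members are red, other genes of at least 1 CPM in a group grey, and 6 genes below that are crosses at the bottom without a ratio. The members and CXCL5 and CXCL3 lie near or above the dashed line at 1.4, with RASSF6 at 0.619 on one side and BTC at 0.119 on the other.

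Transcription factors made up 9 members. EGR1, an early growth response factor induced by ERK signalling, was at 2.996, 2.83 and 2.77 CPM in the control libraries and at 5.53, 5.30 and 6.28 CPM with sgRNA #2. This was 19 to 21 counts per control library and 35 to 39 per sgRNA #2 library, with a ratio of 1.99 and the third widest gap of the set at 1.77. NR4A1, an orphan nuclear receptor of the same early response, was at 15.9, 14.7 and 15.8 CPM against 21.5, 21.4 and 25.8 CPM, a ratio of 1.48. MAFF, a small MAF protein that pairs with other bZIP factors, was at 9.78, 11.03 and 10.4 CPM against 15.6, 15.2 and 13.2 CPM, a ratio of 1.41. MAFF overlaps PLA2G6 on the opposite strand, which itself had a ratio of 1.397 without overlap. MAFG, another small MAF gene, was lower with sgRNA #2, with means of 261 and 161 CPM (edgeR adjusted p = 3.44e-06). PRDM1, the repressor BLIMP1, was at 8.52, 5.80 and 6.72 CPM against 9.21, 10.5 and 11.9 CPM, and its ratio within replicate 1 was the lowest of any member and number at 1.08. SOX21 was at 3.78, 3.54 and 3.16 CPM against 7.79, 4.85 and 4.13 CPM, so its mean ratio of 1.6 leaned on replicate 1 with sgRNA #2. Its antisense neighbour SOX21-AS1 was at 2.21, 2.69 and 2.64 CPM against 4.53, 4.40 and 5.46 CPM, a ratio of 1.91. The zinc finger genes ZNF235 and ZNF333 had ratios of 1.44 and 1.401. ZNF235 was at 7.57, 7.92 and 9.76 CPM against 11.6, 13.9 and 10.7 CPM, and ZNF333 at 4.26, 4.67 and 3.16 CPM against 6.38, 5.61 and 4.96 CPM. Of the 410 tested genes with symbols of that type, 0 were called higher and 4 lower by edgeR (7 and 14 with the block). The homeobox gene HOXB9 and TAF1A, a subunit of the RNA polymerase I factor SL1, had ratios of 1.46 and 1.43.

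The EGR1 window of 250 bases before the start, chr5:138465229-138465478 on the plus strand, is shown because it holds 2 CArG boxes, the sites of serum response factor, which together with TGACGT are in capitals.
EGR1: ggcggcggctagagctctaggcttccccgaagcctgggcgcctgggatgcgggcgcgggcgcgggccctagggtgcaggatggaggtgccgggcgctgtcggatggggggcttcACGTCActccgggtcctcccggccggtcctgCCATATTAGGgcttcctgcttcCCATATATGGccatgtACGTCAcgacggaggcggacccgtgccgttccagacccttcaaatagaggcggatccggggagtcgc
The CArG boxes began 105 and 83 bases before the start, and the TGACGT matches, on the minus strand, 136 and 67 bases before it.

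The fixed list of immediate early and AP-1 genes, which includes EGR1, NR4A1, EREG, AREG and PHLDA1, had 34 tested genes, of which 8 were called higher and 1 lower, with a median log2 fold change of 0.22 against 0.0035 for all tested genes. With the replicate block 14 were called higher and 4 lower. Of the members in this count, AREG and PHLDA1 were called in all 13 fits, EREG in 12, NR4A1 in 9 and EGR1 in 7. DESeq2 did not call EREG, NR4A1 or EGR1, NR4A1 also lost its call without control replicate 2 or 3 or sgRNA #2 replicate 3, and of the 6 fits without 1 library EGR1 was called only in that without sgRNA #2 replicate 2. Of the 8, 5 are members, so neither the count nor the median is independent of the rule. The list was also chosen with earlier results of these data known. The others of the 8 were DUSP6, ETV4 and ETV5, which are known targets and feedback genes of ERK. DUSP6, an ERK phosphatase, was at 81.5, 86.6 and 71.9 CPM against 109.5, 108 and 101 CPM (edgeR adjusted p = 0.00543). ETV5 was at 60.9, 63.9 and 65.8 CPM against 81.0, 85.6 and 82.5 CPM (edgeR adjusted p = 0.00458). Both stayed under 0.05 in all 6 fits without 1 library, while ETV4 (edgeR adjusted p = 0.0317, and 0.047 to 0.165 without 1 library) kept the call only without control replicate 2. IER5 was called lower, with means of 316 and 253 CPM (edgeR adjusted p = 0.0266, and 0.00591 to 0.138 without 1 library, the call being lost without replicate 1 or 2 of the control or replicate 1 or 3 with sgRNA #2). Other early genes did not pass without the block, among them FOS with means of 9.23 and 11.3 CPM (edgeR adjusted p = 0.755), JUN with 187 and 178 CPM (edgeR adjusted p = 0.893) and MYC with 336 and 367 CPM (edgeR adjusted p = 0.564, and 0.0398 with the block). SPRY2, SPRY4, SPRED1, SPRED2, DUSP5 and FOSL1 of this list did not pass with or without the block. Their edgeR adjusted p without it was 0.365, 0.2765, 0.609, 0.901, 0.7395 and 0.822. SPRY2 and SPRY4 were nevertheless higher without overlap. DUSP4 was lower without overlap, with means of 285 and 255 CPM (edgeR adjusted p = 0.268, and 0.00481 with the block).

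The fixed list of NF-kB and inflammatory cytokine genes had 27 tested genes, with 5 called higher, 2 lower and a median log2 fold change of 0.18, and 12 higher and 3 lower with the block. The 5 were CXCL1, CXCL2, CXCL8, PTGS2 and CXCL5, and 4 of them are members. Neither the count nor the median is therefore independent of the rule, and this list too was chosen with earlier results known. CXCL1 and CXCL2 lost their calls without control replicate 3 and without sgRNA #2 replicate 1 or 2, and CXCL1 also with DESeq2. The complement gene C3 was lower, at 84.5, 106 and 79.2 CPM against 49.2, 61.7 and 47.95 CPM (edgeR adjusted p = 3.13e-04), as was TNFAIP2 with means of 745 and 488 CPM (edgeR adjusted p = 5.24e-05). NFKBIA, the feedback inhibitor that NF-kB induces, had means of 156 and 165 CPM (edgeR adjusted p = 0.732), and IL6 had 18.2 and 24.4 CPM (edgeR adjusted p = 0.120, and 0.00219 with the block). The chemokine receptors CXCR1 and CXCR2 had at most 1 count in any library.

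The signalling group held 10 members that are secreted or sit on the cell surface. JAG1, a ligand of Notch receptors, was at 135.3, 129.6 and 119.8 CPM against 184, 182 and 174 CPM, a ratio of 1.402 with little spread in either group (CV 6.09% in the control). Of the 19 tested genes of the fixed Notch list, JAG1 was called higher and 3 were called lower, and 2 were called higher and 5 lower with the block. NOTCH3 was at 67.8, 81.8 and 88.6 CPM against 14.9, 13.5 and 13.2 CPM (edgeR adjusted p = 9.02e-11). NOTCH1 had means of 55.9 and 35.8 CPM (edgeR adjusted p = 7.56e-04), and LFNG 58.1 and 42.8 CPM (edgeR adjusted p = 0.0436, and 0.0126 to 0.278 without 1 library, the call being lost without replicate 2 or 3 of the control or replicate 1 or 2 with sgRNA #2). HES1, a Notch target, had means of 7.52 and 7.57 CPM.

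BMP6, a bone morphogenetic protein, was at 23.7, 29.3 and 27.7 CPM in the control libraries and at 39.0, 40.2 and 41.2 CPM with sgRNA #2, a ratio of 1.49. SMOC1, a secreted protein that antagonises BMP signalling, was at 22.4, 26.3 and 29.3 CPM against 35.1, 39.9 and 35.9 CPM, a ratio of 1.42. ID1, ID2 and ID3, targets of BMP signalling, had ratios of 0.982, 0.878 and 1.01 and did not pass the test (edgeR adjusted p = 0.941, 0.396 and 0.988), although ID2 did with the block (edgeR adjusted p = 0.0174). ABI3BP, a matrix protein, was at 2.68, 4.10 and 1.71 CPM against 7.93, 9.40 and 7.61 CPM, and its ratio of 2.93 was second in the set. Its control libraries held 13 to 29 counts, with a CV of 42.4% where counting alone would give 22.6%. FGFBP1, which releases fibroblast growth factors from the matrix, was at 25.1, 18.1 and 18.9 CPM against 38.7, 29.4 and 28.1 CPM. INSL4, an insulin-like peptide known from placenta, was at 23.7, 25.5 and 28.7 CPM against 37.4, 40.2 and 41.7 CPM. Both ratios were close to the median of the set, 1.55 for FGFBP1 and 1.53 for INSL4.

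GIPR and GPR3 had means just above the threshold of 5 CPM. GIPR, the receptor of the gut hormone GIP, was at 2.52, 2.83 and 3.56 CPM against 5.24, 5.001 and 5.29 CPM, a ratio of 1.74. GPR3, a receptor that raises cyclic AMP without a ligand, was at 3.47, 2.83 and 3.43 CPM against 5.38, 5.61 and 4.63 CPM, a ratio of 1.61. The scavenger receptor SCARF1 and FIBCD1, a receptor of acetylated sugars, had ratios of 1.42 and 1.41. In SCARF1 the groups were separated by a factor of 1.02.

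**Figure D4:**
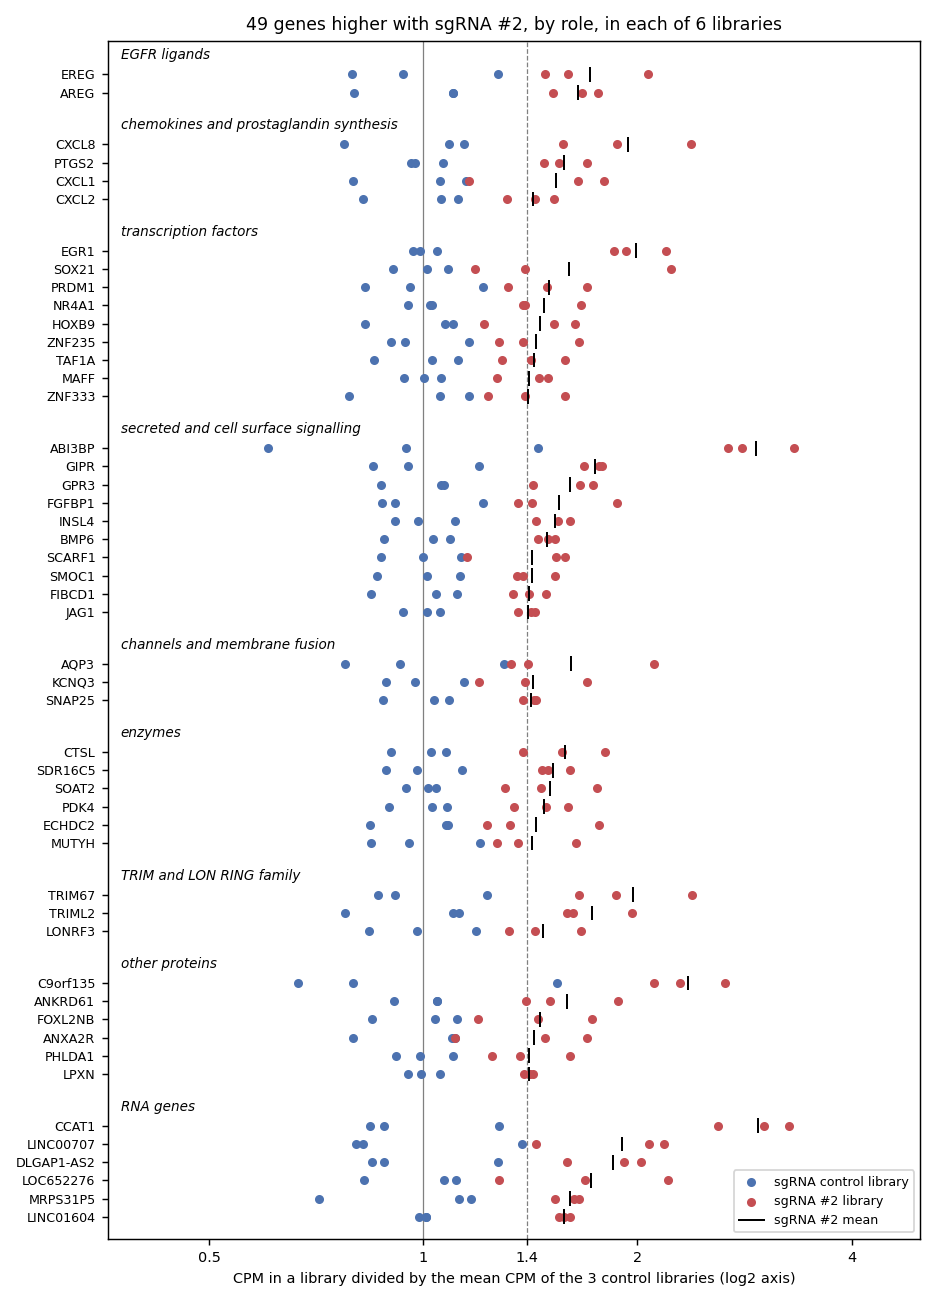
CPM of each member in the 3 control (blue) and 3 sgRNA #2 libraries (red), divided by the control mean of that gene (log2 axis), with the sgRNA #2 mean as a black bar and the ratio of 1.4 as a dashed line. Members are grouped by role and sorted by ratio, and the groups touch almost in ANXA2R, CXCL1 and SCARF1 and lie farthest apart in CCAT1, ABI3BP and EGR1.

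Channels, enzymes and proteins of membrane fusion made up 9 members. CTSL, the lysosomal protease cathepsin L, was at 299, 262 and 313 CPM against 455, 402 and 523 CPM, a ratio of 1.58. Its counts of 1850 to 3213 per library give a counting error of 2.21% in the control, while the CV between its libraries was 9.03%. Of the 30 tested lysosome and autophagy genes of the fixed list CTSL was called higher and CTSD and SQSTM1 lower, and 1 was called higher and 5 lower with the block. CTSD, which encodes cathepsin D, was at 768, 902 and 916 CPM against 635, 632 and 733 CPM (edgeR adjusted p = 0.0118, and 0.00232 to 0.0942 without 1 library, the call being lost without replicate 2 or 3 of the control or replicate 1 or 2 with sgRNA #2). AQP3, a water and glycerol channel, was at 61.3, 73.4 and 103 CPM against 105, 111 and 167 CPM. Its ratio of 1.61 was carried by all 3 replicate numbers, with 1.71, 1.51 and 1.63, although the highest control library and the lowest sgRNA #2 library differed by a factor of 1.02.

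PDK4, the kinase that shuts down pyruvate dehydrogenase, was at 45.9, 55.3 and 52.7 CPM against 68.9, 81.8 and 76.4 CPM, a ratio of 1.48. Of 16 tested genes of the fixed list of glucocorticoid targets, PDK4 was called higher and 2 lower, and 4 were called higher and 3 lower with the block. PDK1, PDK2 and PDK3 had ratios of 0.937, 1.03 and 0.872 with edgeR adjusted p values of 0.773, 0.970 and 0.497, the last being 0.0468 with the block. SOAT2, a sterol acyltransferase, was at 7.25, 7.07 and 6.59 CPM against 10.2, 9.09 and 12.2 CPM, and its paralogue SOAT1 had a ratio of 0.991 (edgeR adjusted p = 0.963). SDR16C5, a retinol dehydrogenase, ECHDC2, a mitochondrial hydratase-like protein, and MUTYH, a DNA glycosylase, had ratios between 1.42 and 1.52. KCNQ3, a potassium channel subunit, was at 54.4, 63.7 and 49.4 CPM against 77.6, 94.7 and 66.8 CPM. SNAP25, a SNARE protein of vesicle fusion, was at 17.3, 14.7 and 18.2 CPM against 23.1, 24.1 and 23.98 CPM. SNAP25 lies 329 kb from JAG1 on chromosome 20, the closest pair of members outside chromosome 4.

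TRIM67, a protein of the TRIM family, the TRIM-like protein TRIML2, and LONRF3, a RING protein, made up a further group. TRIM67 was at 2.84, 2.69 and 3.82 CPM against 5.81, 5.15 and 7.44 CPM, with ratios of 2.05, 1.92 and 1.95 within the replicate numbers. TRIML2 was at 21.0, 21.4 and 14.8 CPM against 37.4, 30.9 and 30.3 CPM, a ratio of 1.73 with a gap of 1.42. PHLDA1, an ERK-induced protein with a pleckstrin homology-like domain, was at 181, 168 and 202 CPM against 251, 229 and 296 CPM, a ratio of 1.41. C9orf135, now named CFAP95 for a ciliary protein, was at 2.996, 5.80 and 2.51 CPM against 8.64, 10.0 and 7.94 CPM, and its ratio of 2.35 rested on 19 to 41 control counts with a CV of 47.2%. LPXN, a focal adhesion protein, had the lowest CV of all members with sgRNA #2, 1.41%, at 5.95, 6.06 and 6.12 CPM against 4.26, 4.53 and 4.09 CPM. ANKRD61, FOXL2NB and ANXA2R had ratios of 1.59, 1.46 and 1.43.

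The 6 RNA genes included the largest ratio of the set. CCAT1, a long non-coding RNA known from colon cancer, was at 3.31, 4.81 and 3.16 CPM in the control libraries and at 11.3, 12.3 and 9.76 CPM with sgRNA #2, a ratio of 2.96. Its lowest sgRNA #2 value was 2.03 times its highest control value, the widest gap of the set. LINC00707 was at 9.93, 5.94 and 5.80 CPM against 15.02, 15.8 and 10.4 CPM, a ratio of 1.90 with a gap of 1.05 because 1 control library was high. LINC01604 was at 5.68, 5.80 and 5.80 CPM against 8.93, 9.09 and 9.26 CPM, the member with the lowest control CV, with a value of 1.24% where counting alone would give 15.8%. DLGAP1-AS2 was at 3.63, 2.40 and 2.51 CPM against 4.53, 5.76 and 5.46 CPM, a ratio of 1.84. LOC652276 was at 2.84, 3.68 and 3.82 CPM against 5.81, 4.40 and 7.61 CPM, a ratio of 1.72. The pseudogene MRPS31P5 was at 2.68, 4.39 and 4.22 CPM against 6.23, 5.76 and 6.12 CPM, a ratio of 1.605. MRPS31P5 shares sequence with the gene it was copied from, so its reads are uncertain. By its symbol it is 1 of the 77 tested genes of the fixed list of mitochondrial ribosomal proteins, of which edgeR called 0 higher or lower, and 5 higher with the block, MRPS31P5 among them. Of the 117 tested long intergenic RNA genes 2 were called higher, LINC00707 and LINC01000, and 2 lower, with 4 and 8 with the block, and LINC01604 was called in 2 of the 13 fits.

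Positions from GENCODE showed which members share sequence with other genes. Of the 46 members found there, 27 (58.7%) overlapped another annotated gene, against 72.5% of all genes with at least 5 CPM. In 11 of them the partner was in the count files with at least 1 CPM with sgRNA #2. Of these 12 partner genes, 2 had all sgRNA #2 values above all control values, PLA2G6 at MAFF and SOX21-AS1 at SOX21. Among all genes with a mean of at least 5 CPM with sgRNA #2 the share was 7.80%, and 12 genes are too few to set against it. EIF2AK1 at ANKRD61, HOXB7 at HOXB9, TOE1 at MUTYH and ATG5 at PRDM1 had ratios between 0.940 and 1.03. The strand setting of the counting was not given, so reads of a member and of an antisense partner cannot be told apart.

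The members were shorter than other expressed genes and their promoters held less GC and fewer CpG pairs. The median transcript length was 2510.5 bases for the 46 members and 3442 bases for 11186 genes with at least 5 CPM, and the median number of exons was 7 and 9. In the 250 bases before the start, the 37 members with a RefSeq promoter had a median GC content of 61.4% and a CpG observed-to-expected ratio of 0.646, against 64.8% and 0.813 for 9203 genes. TATAAA was found in 11 of 48 member promoters (22.9%) and in 5.60% of 13494 promoters, on either strand. On the gene strand and within 45 to 15 bases before the start it was found in 5 member promoters (10.4%), those of AQP3, AREG, CXCL8, EREG and PTGS2, and in 1.47% of all. The AP-1 site TGANTCA was found in 14.6% of member promoters, those of CXCL8, PRDM1, TRIM67, LPXN, MUTYH, ZNF235 and DLGAP1-AS2, and in 4.42% of all. TGACGT was found in 18.8% and 9.49%, the CArG box in 4.17% (AQP3 and EGR1) and 1.08%, and the NF-kB site in 14.6% and 11.8%. The GC box GGGCGG (24 of 48 against 64.1%), the ETS site CCGGAAG (6.25% against 14.7%) and the EGR site GCGGGGGCG (2.08% against 7.68%) were found in a smaller share of the member promoters than of all. CTTG, the NKX2-1 motif of the study, was found in 91.7% and 76.3%. These shares come from 48 promoters, several of them of the same gene, and are descriptions.

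**Figure D5:**
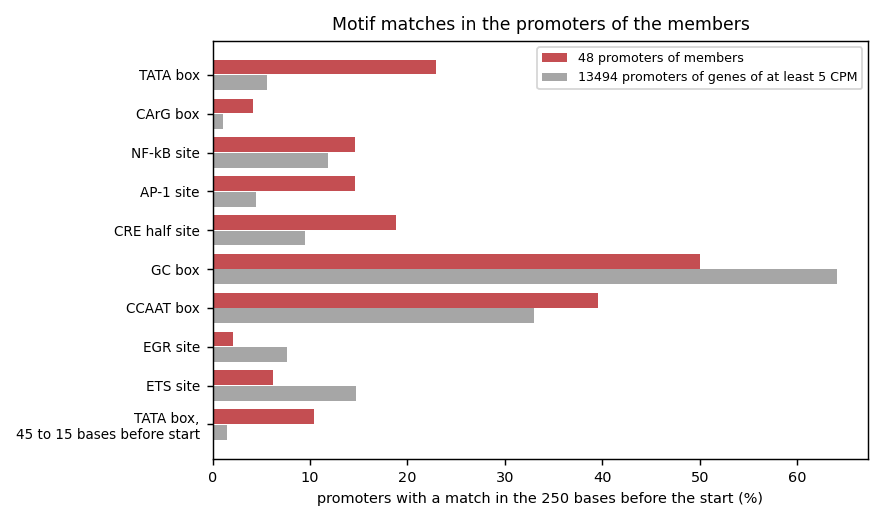
Share of promoters with at least 1 match of each motif in the 250 bases before the start, for the 48 RefSeq promoters of 37 members (red) and the 13494 promoters of all genes with at least 5 CPM with sgRNA #2 (grey). The bars for TATA box, AP-1 site and CArG box are longer for the members, and those for GC box, ETS site and EGR site shorter.

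AU-rich elements, which shorten the life of many cytokine and growth factor messages, were counted in the 3′ untranslated regions of 43 members. The pentamer ATTTA had a median density of 2.46 per 1000 bases in the members and 1.79 in 10767 genes. At least 2 copies of TATTTAT were present in 13 members (30.2%) and in 16.4% of those genes, and at least 1 copy in 44.2% and 37.7%. PTGS2 held 22 ATTTA and 7 TATTTAT, EREG 20 and 4, CXCL2 10 and 8, CXCL8 9 and 4, CXCL1 6 and 4, and AREG 4 and 1. Members of other roles held both as well, among them PHLDA1 with 14 and 3, ZNF333 with 12 and 2, ABI3BP with 10 and 3 and JAG1 with 9 and 5. EGR1 held 1 ATTTA and CTSL 1, so the elements were not common to all members. At least 5 ATTTA, a count that grows with length, were found in 30.2% of the members and 35.7% of the genes.

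Replicate numbers and counting error bear on how firmly single members can be placed. In 24 members (49.0%) the same replicate number was highest in both groups, as in 49.2% of all genes with at least 5 CPM, and in 30 members (61.2%) the same number was lowest, against 49.5%. AQP3, CTSL and PHLDA1 were highest in replicate 3 of both groups, where the chemokines were lowest. All 3 ratios within replicate numbers reached 1.4 in 21 members, and over all members they ran from 1.08 to 4.44. The median CV was 13.95% in the control and 12.1% in the sgRNA #2 libraries. For the 21 members under 10 CPM with sgRNA #2 the median control CV of 15.4% lay below the 19.3% that counting alone would give, while for the other 28 it was 13.7% against 7.62%. Single low members departed from this: ABI3BP and C9orf135 spread more than counting alone would give in the control, and SOX21 did so with sgRNA #2, with a CV of 34.7% against 16.4%. Each CV rests on 3 libraries, and the rule favours members with little spread within the groups. The medians therefore do not show that low members varied less than counting alone would give. The lowest count of any member in any library was 13.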

How the data were processed

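RNA-seq was performed on 6 libraries of total RNA from A549 cells, 3 per sgRNA. The values are raw counts that the authors deposited for each gene symbol, obtained with htseq-count. The submitters' processing notes also list Trim Galore, FastQC, Bowtie2 2.3.3.1, SAMtools, Picard and hg38. Neither their order nor an annotation or strand option is given in the sources used here, and strand affects overlapping genes. Summary rows of unassigned reads were left out of library sizes. Depth was 6047554 to 7584611 gene counts per library.

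CPM and the rule were computed in Python 3.11.15. The quasi-likelihood test of edgeR 4.0.16 (R 4.3.3, TMM scaling) was run on 13356 genes that reached 10 counts in 3 or more libraries, and p-values were adjusted by Benjamini-Hochberg. The edgeR fit without the replicate block was tested on simulated data. Alternatives were DESeq2 1.42.0, other scalings, filters and thresholds, the replicate block and leaving out each library. The study describes the triplicates as biologically independent, and p-values measure the spread between these samples. Libraries of a group differed by more than sampling noise (chi-square per degree of freedom 2.73 to 3.61). Replicate numbers come from the labels. Same-numbered libraries correlated in their deviations from the group means at 0.281, 0.294 and 0.302 over 13356 genes, so the numbers were taken to pair them. With the block, and without a count filter, the prior degrees of freedom were infinite. These fits took the spread of a gene from the trend over all genes and not from the gene itself. Their p-values and calls are therefore not on a par with those of the main fit. Counting intervals and floors cover counting error only.

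Positions, exons and untranslated regions come from GENCODE on GRCh38 (24275 of 26485 symbols matched, 46 of 49 members; CCAT1, LOC652276 and MRPS31P5 were not), and promoters from the RefSeq table on GRCh38.p14 (37 members). The sgRNA sequence comes from the study's supplementary files. The members, roles and gene lists were chosen with earlier results of these data known. The genes named by rule were SFTPB, the 12 members with the highest ratio, the 8 with the widest gap, the 6 with the highest mean, those in a gene list, those within 200 kb of another member and the 2 genes on either side of each threshold, which outside the other criteria are given by their value at that threshold. Other genes were chosen after their values were seen.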

Additional observations from a re-analysis of the deposited data

How the results depend on the processing

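The rule gave 47 members with TMM-scaled CPM and 49 with RLE size factors. It gave 90 with a minimum mean of 2 CPM, 28 with 10 CPM, 102 with a ratio of at least 1.3, 27 with 1.5 and 3 with 2, and 65 when the replicate block asked for higher values in all 3 same-numbered pairs. Without 1 library it gave 55 to 101, since fewer values can overlap, among them 81 without control replicate 1, 81 without control replicate 2 and 101 without sgRNA #2 replicate 3. Of the 49 members, 22 met the rule in all 6 sets of 5 libraries.

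Without 1 library edgeR called 17 to 21 members, 37 to 58 genes higher, 185 to 274 lower, 224 to 327 in all and 48 to 71 genes of the fixed lists, against 25, 62, 297, 359 and 76 with all libraries. Calls fell most without sgRNA #2 replicate 1 (224, of which 39 higher and 185 lower, and 48 in the lists), and also without control replicate 2 (233, of which 190 lower) and control replicate 3 (37 higher). With no count filter 583 genes were called, 145 of them higher, with 120 in the lists. With the replicate block 1339 were called (530 higher and 809 lower), with 45 members and 242 genes of the lists. Asking for a log2 fold change of at least 1 left 96 (4 higher and 92 lower), with 3 members. Of 588 fold changes of members under alternatives, 46 lost a call and 27 gained one. That 0 changed sign restates the rule, which took only genes whose groups do not overlap. The depth of 30.2 to 37.9 reads at 5 CPM limits the low members, and strand and annotation could not be checked.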
